A study of Mus musculus with 6 samples.

Results

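The response of mouse dendritic cells (DC) to the cytokine TNFa was examined in cells that had been transduced with AdOVA, the control adenovirus of the study. The comparison is that of the array of AdOVA+TNFa cells with the array of AdOVA cells, 2 of the 6 arrays of the series, and it covers all 22626 non-control probe sets among the 22690 on the Affymetrix MOE430A array. Of these, 14902 were measured, meaning above a floor on at least 2 of the 6 arrays, and they give 8933 genes. A gene was read from its brightest measured probe set that carries 1 gene symbol. Each value is the log2 of the AdOVA+TNFa signal over the AdOVA signal, after signals under the floor were set to it. The floor lay at the 40th percentile of the signals of all non-control probe sets.

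The cells were grown from bone marrow of a female CAR-transgenic mouse aged 13 weeks, in medium with growth factors for 7 days and then with 250 U/ml GM-CSF for 7 more days, which turns progenitors into DC. Both groups received AdOVA at 1500 particles per cell for 2 h and were cultured for another 18 h. The AdOVA+TNFa cells then received TNFa at 50 ng/ml for 4 h, and the AdOVA cells did not. The transgene and the virus are therefore common to both groups. The remaining arrays hold TNFa and untreated cells, which had no virus, and AdIkBa-SR+TNFa and AdIkBa-SR cells, which carried a virus named for IkBa, the inhibitor of NF-kB. Each group has 1 array, so the log2 differences carry no replicate error. Whether cultures or animals were separate is not in the labels, nor is the promoter of the transgene.

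TNFa binds the receptors TNFR1 and TNFR2, and adaptor proteins at the receptor activate the IkB kinase complex. The kinase marks IkB proteins for breakdown, which releases NF-kB dimers to the nucleus, where they switch on genes for cytokines, chemokines, adhesion molecules and survival proteins. Among the targets are the pathway's own brakes, such as IkBa and A20, and its own subunits. In DC, NF-kB activity accompanies maturation, in which the cells shift from taking up antigen to presenting it to T cells.

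The deposited signals had the same trimmed mean of 200.1 on every array. The median signal was 88.5 on the AdOVA+TNFa array and 82.6 on the AdOVA array, and between 74.4 and 77.4 on the other 4 arrays. Signals above the floor made up 63.4% of probe sets on the AdOVA+TNFa array and 62.3% on the AdOVA array. The pair was not hybridized together: the AdOVA array shares its recorded hybridization time with the TNFa and untreated arrays, and the AdOVA+TNFa array shares the other time with both AdIkBa-SR arrays. TNFa and hybridization time cannot be told apart in this pair, whereas the TNFa and untreated arrays share 1 time and so do the AdIkBa-SR+TNFa and AdIkBa-SR arrays. The wash and stain settings of the AdIkBa-SR array differed from those of the other 5. Its header records 0 wash A1 cycles, 0 wash B cycles and a first stain of 420 s, against 10, 4 and 600 s. TNFa and these settings cannot be told apart in the AdIkBa-SR pair.

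The control probe sets for 18S ribosomal RNA set the AdOVA+TNFa array apart. The 5' probe set read 2601.1 on the AdOVA+TNFa array and 233.6 on the AdOVA array, and between 120.3 and 537.0 on the other 4. The middle probe set read 302.6 on the AdOVA+TNFa array and 80.3 on the AdOVA array, and the 3' probe set read 1061.3 on the AdOVA+TNFa array and 289.0 on the AdOVA array. All 3 were higher on the AdOVA+TNFa array than on any other array. The 9 hybridization spike-ins differed by a median of -0.18 on the log2 scale, with a range of -0.61 to 0.25. The ratio of the 3' to the 5' beta-actin probe set, a measure of RNA integrity, was 1.38 on the AdOVA+TNFa array and 1.84 on the AdOVA array. The part of these differences in the results below was not tested.

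Of the 14902 measured probe sets, 700 (4.70%) had at least 2-fold more signal on the AdOVA+TNFa array and 495 (3.32%) had at least 2-fold less. That made 58.6% of these probe sets higher ones. When the arrays were instead set to equal medians, 508 were higher and 634 lower, so that 44.5% were higher, and the balance of directions therefore depends on the scaling. Among the 8933 genes, 357 (4.00%) were 2-fold or more higher and 297 (3.32%) 2-fold or more lower, and with equal medians 256 were higher and 377 lower. The median difference over all genes was 0.01 and the standard deviation (SD) across genes was 0.54 on the log2 scale. The same SD was 0.38 for TNFa over untreated cells and 0.42 for AdIkBa-SR+TNFa over AdIkBa-SR cells. In those pairs 47 genes (0.526%) and 149 genes (1.67%) were at least 2-fold higher, and 95 (1.06%) and 74 (0.828%) at least 2-fold lower.

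Direction varied with brightness. Brightness here is the mean signal over the AdOVA+TNFa and AdOVA arrays, the same signals that are compared. Of the 565 probe sets with a mean of 2000 or more, 7 (1.24%) were 2-fold or more higher and 68 (12.0%) lower. Of the 4098 probe sets with a mean signal from 100 to 200, 6.25% were 2-fold or more higher and 2.61% lower. The genes that were lower were also shorter in the genome, with a median span of 9.06 kb, against 21.5 kb over all measured genes, and the genes that were higher had a median span of 23.2 kb.

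The spread among arrays was used as a yardstick in a limma fit over all 6 arrays, in which the AdOVA pair had its own TNFa coefficient and the other pairs shared 1. The residual degree of freedom is then the difference of the other TNFa responses. No probe set passed a Benjamini-Hochberg adjusted p of 0.05 in this limma fit, whose smallest adjusted p was 0.46, and 1622 had an unadjusted p under 0.05. The difference of the AdOVA response from that of the other pairs gave 0 calls as well, with a smallest limma adjusted p of 0.79 and 882 probe sets at an unadjusted p under 0.05. With 1 residual degree of freedom the fit made no calls on simulated data even at the largest fold tried, so these counts do not bear on whether genes responded. The differences below are descriptions of 2 arrays.

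TNFa's own receptors and ligands came near the middle of the distribution. Tnfrsf1a, which encodes TNFR1, read 1084 in AdOVA+TNFa cells and 1019.6 in AdOVA cells, a log2 difference of 0.09. Tnfrsf1b, which encodes TNFR2, read 5394 in AdOVA+TNFa cells and 4594 in AdOVA cells on its brightest probe set (0.23). Its other probe set read 2984 in AdOVA+TNFa cells and 802 in AdOVA cells (1.90), so the probe sets of this gene do not give 1 value. The same probe set read 853 in TNFa cells and 376 in untreated cells, and 1610 in AdIkBa-SR+TNFa cells against 494 in AdIkBa-SR cells. Tnf itself read 583 in AdOVA+TNFa cells and 598 in AdOVA cells, a log2 difference of -0.04, beside 318 in TNFa cells and 139 in untreated cells (1.20). Both AdOVA arrays were thus above the TNFa array for Tnf. The 22 measured genes of TNF receptor signalling had a median of 0.07. Of these, 1 was at least 2-fold higher (4.55%, beside 4.00% of all genes) and none lower. That gene was Lta, which encodes the TNF relative lymphotoxin alpha, at 117 in AdOVA+TNFa cells and under the floor in AdOVA cells, at least 2.19-fold higher. Tnfrsf9, the costimulatory receptor 4-1BB, read 2774 in AdOVA+TNFa cells and 1794 in AdOVA cells (0.63).

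Genes of the NF-kB pathway itself were mostly higher with TNFa. Of 17 measured subunits, IkB proteins, kinases and feedback genes, 15 were above 0, 3 were at least 2-fold higher (17.6%, beside 4.00% of all genes) and none was at least 2-fold lower. The list's median was 0.41. The AdOVA+TNFa array was the highest of the 6 for 12 of the 17, as it was for 27.8% of all measured genes. The list was drawn up with earlier results of these arrays known, and no test was made of it.

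Nfkb2, which encodes the p100 precursor of the p52 subunit, had the largest difference of the list. It read 470.3 in AdOVA+TNFa cells and 127 in AdOVA cells, a log2 difference of 1.89, and its second probe set differed by 1.24. Without virus it read 313 in TNFa cells and 201 in untreated cells (0.64), and with the other virus 336 in AdIkBa-SR+TNFa cells and 85.9 in AdIkBa-SR cells (1.97). On this brightest probe set of Nfkb2 all 3 TNFa arrays thus lay above all 3 arrays without TNFa, and the AdOVA array lay below the untreated one. Its second probe set did not share that order, at 76.6 in TNFa cells against 86.1 in untreated cells. Tnfaip3, which encodes A20, the enzyme that shuts off signalling at the receptor, read 1462 in AdOVA+TNFa cells and 512 in AdOVA cells (1.51). It read 189 in TNFa cells and 162 in untreated cells, and 224 in AdIkBa-SR+TNFa cells against 110.3 in AdIkBa-SR cells. Both AdOVA arrays lay above the other 4 arrays for Tnfaip3. Relb, the subunit that pairs with p52, read 266 in AdOVA+TNFa cells and 109 in AdOVA cells (1.28), and 102 in TNFa cells against 90.7 in untreated cells. It read 158 in AdIkBa-SR+TNFa cells and was under the floor in AdIkBa-SR cells (a log2 difference of at least 1.56).

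Rela, the p65 subunit, read 1190.00 in AdOVA+TNFa cells and 646 in AdOVA cells (0.88). The kinase gene Ikbke read 822 in AdOVA+TNFa cells and 444 in AdOVA cells (0.89). Differences of 0.81 and 0.77 were seen for Bcl3 and Nfkbie, both members of the IkB family, and 0.32 for Tnip1, which encodes an A20-binding protein. Nfkbia, which encodes IkBa, ran the other way, at 9729 in AdOVA+TNFa cells and 16337 in AdOVA cells (-0.75), and its 4 probe sets lay between -0.75 and -0.08. The AdOVA array had the highest Nfkbia signal of the 6 arrays, and TNFa and untreated cells read 10697 and 10622.

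**Figure D1:**
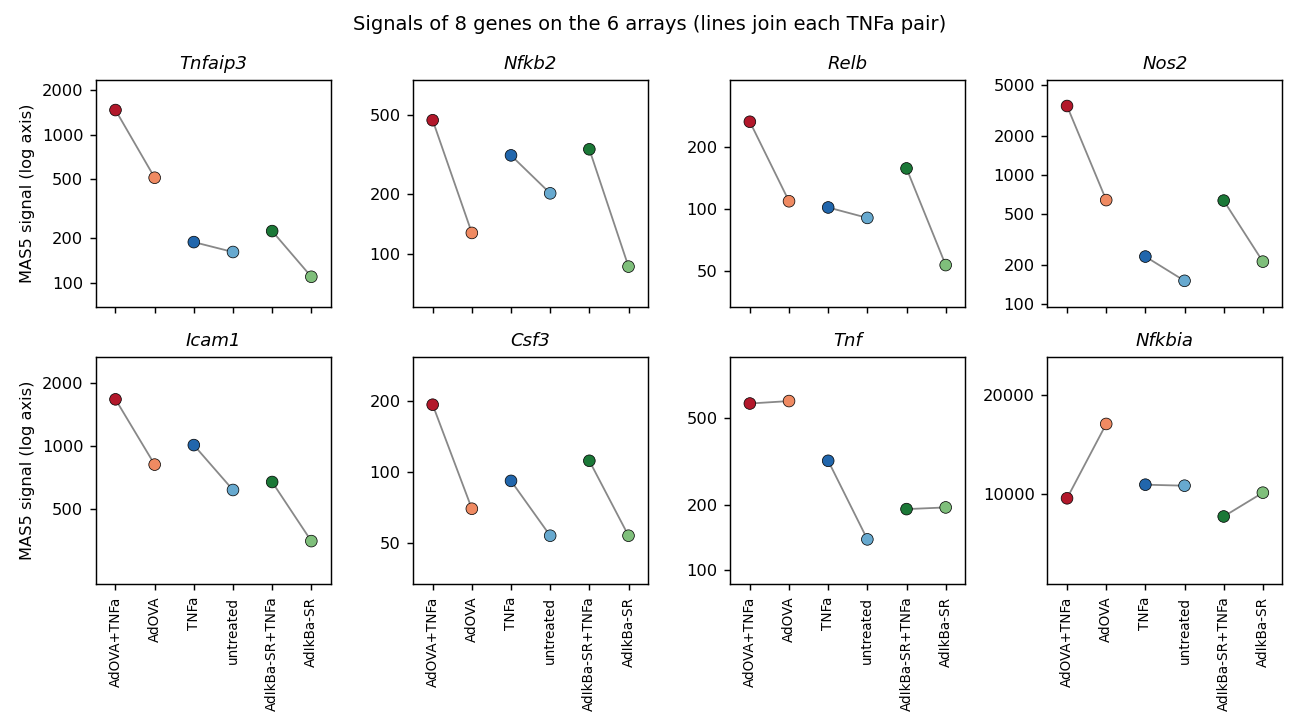
MAS5 signal (log axis, signals under the floor drawn at the floor) of 8 genes on the 6 arrays, 1 point per array, with lines joining each TNFa array to the array of the same virus state without TNFa. Tnfaip3 and Nos2 read 1462 and 3444 on the AdOVA+TNFa array, above all other arrays, while Tnf was level between the AdOVA+TNFa and AdOVA arrays and Nfkbia was highest on the AdOVA array.

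Promoter windows from RefSeq (GRCm38.p6, 250 bases before to 50 after a transcript start) were searched on both strands for the kB consensus, the sequence that NF-kB dimers bind. These sequences are shown because they belong to genes of the NF-kB, cytokine and maturation lists that were at least 2-fold higher and hold a match. For Nfkb2 and Tnfaip3 the whole window is printed, and for Tgfb1 and Icosl an excerpt of 60 bases around the match. Capitals mark the matches, and matches that overlap form 1 run of capitals.
Nfkb2 (chr19:46304487-46304786, plus strand): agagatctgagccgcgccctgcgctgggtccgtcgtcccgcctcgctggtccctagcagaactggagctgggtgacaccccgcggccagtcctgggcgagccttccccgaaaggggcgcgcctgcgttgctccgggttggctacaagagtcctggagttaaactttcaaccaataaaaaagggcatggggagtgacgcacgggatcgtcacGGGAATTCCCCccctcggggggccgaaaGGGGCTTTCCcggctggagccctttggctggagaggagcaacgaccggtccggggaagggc
Tnfaip3 (chr10:19015361-19015660, minus strand): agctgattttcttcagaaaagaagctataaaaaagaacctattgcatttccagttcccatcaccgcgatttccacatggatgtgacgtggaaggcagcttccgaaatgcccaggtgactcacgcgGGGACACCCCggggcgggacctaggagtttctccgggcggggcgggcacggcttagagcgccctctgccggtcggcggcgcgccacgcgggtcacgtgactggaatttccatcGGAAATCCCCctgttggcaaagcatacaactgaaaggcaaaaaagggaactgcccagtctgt
Tgfb1 (chr7:25686837-25686896, plus strand): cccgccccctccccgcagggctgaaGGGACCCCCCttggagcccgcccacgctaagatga
Icosl (chr10:78069232-78069291, plus strand): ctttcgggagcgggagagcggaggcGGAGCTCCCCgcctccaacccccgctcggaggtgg

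The Nfkb2 window holds 3 matches, among them an overlapping pair, the Tnfaip3 window holds 2, and the Tgfb1 and Icosl windows hold 1 each. The windows of Ccl22, Lta and Icam1 hold none, and Relb and Csf3 were not searched. A match was found in 8.46% of all 32851 windows. Counted per gene over any of its windows, it was found for 40 of 297 genes at least 2-fold higher (13.5%), for 30 of 250 at least 2-fold lower (12.0%) and for 904 of all 7257 measured genes with a window (12.5%). The share among the higher genes thus lay near that of all measured genes.

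**Figure D2:**
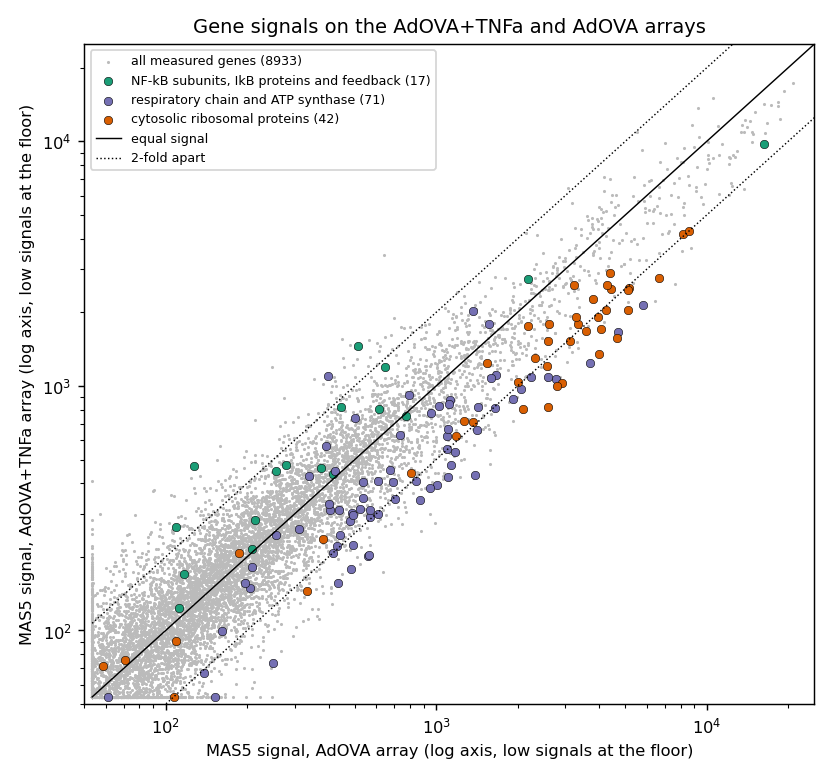
MAS5 signal on the AdOVA+TNFa array (vertical) against the AdOVA array (horizontal), both on log axes, for the 8933 measured genes, with signals under the floor drawn at the floor. Of the genes of the NF-kB list, 15 of 17 lie above the line of equal signal, and 39 of 42 cytosolic ribosomal protein genes and 63 of 71 genes of the respiratory chain and ATP synthase lie below it. Dotted lines are 2-fold apart from equality.

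Among genes with signals of at least 200 on both arrays (3494 genes), 77 were at least 2-fold higher, and the largest difference was that of Nos2, the inducible nitric oxide synthase of myeloid cells. Nos2 read 3444 in AdOVA+TNFa cells and 639.9 in AdOVA cells, a log2 difference of 2.43. It read 233 in TNFa cells and 151 in untreated cells (0.63), and 634 in AdIkBa-SR+TNFa cells against 213 in AdIkBa-SR cells (1.58). Nos2 was thus higher with TNFa in each virus state, and highest where AdOVA and TNFa came together. The integrin subunit gene Itga5 read 1190.4 in AdOVA+TNFa cells and 248 in AdOVA cells (2.26), and its second probe set differed by 1.87. Itga5 was level without virus, at 219 in TNFa cells and 209 in untreated cells. With the other virus it read 756 in AdIkBa-SR+TNFa cells and 238 in AdIkBa-SR cells (1.67).

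Nlrp3, the sensor protein of an inflammasome that activates interleukin 1 beta, read 1300.3 in AdOVA+TNFa cells and 452 in AdOVA cells (1.53). It read 357 in TNFa cells and 272 in untreated cells, and 809 in AdIkBa-SR+TNFa cells against 290.4 in AdIkBa-SR cells. Its order over the pairs was that of Nos2. The aminopeptidase gene Anpep (1.79) and Arpc4 (1.51), which encodes a subunit of the actin-nucleating Arp2/3 complex, were likewise higher. Arpc4 and Anpep were however higher still in AdIkBa-SR+TNFa cells, and the AdOVA array was the lowest of the 6 for both.

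The rest of the 15 largest bright differences were those of Chpf2, Tln1, Pom121, Trim30d, Tnfaip3, Atp5b, Pfkl, Plec, Pld3 and Adar, from 1.76 to 1.39. For several of them the AdOVA array was the low one. Atp5b, a subunit of the ATP synthase, read 1098 in AdOVA+TNFa cells and 398 in AdOVA cells (1.46), but between 1686 and 1861 on the other 4 arrays. Pom121, of the nuclear pore, read 1475 in AdOVA+TNFa cells and 480.3 in AdOVA cells (1.62), beside 1812 in TNFa cells and 1437 in untreated cells. Tln1, which links integrins to actin, differed by 1.70 on its brightest probe set and by -0.05 on its other one.

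The same held for the genes that came up from under the floor. The 5 with the largest bounds were Rab15 (at least 7.63-fold higher), P2ry6 (at least 5.27-fold), Slc20a2 (at least 4.88-fold, with a difference of 0.16 on its other probe set), Fxr2 (at least 4.62-fold) and Gga1 (at least 4.16-fold). Rab15, a small GTPase of endosomal recycling, read 408 in AdOVA+TNFa cells and 49.8 in AdOVA cells, and between 248 and 325 on the other 4 arrays. P2ry6, a receptor for extracellular nucleotides, read 282 in AdOVA+TNFa cells and 38.3 in AdOVA cells, and at least 249 on the other 4. The AdOVA array was the one out of line for both.

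Over all 357 genes at least 2-fold higher, the AdOVA+TNFa array was the highest of the 6 for 239 (66.9%, beside 27.8% of all measured genes), and the AdOVA array was the lowest for 248 (69.5%, beside 18.2%). Measured against the median of the other 4 arrays, the AdOVA+TNFa array lay at a median of 0.67 and the AdOVA array at -0.56 on the log2 scale. Of the 297 genes at least 2-fold lower, the AdOVA+TNFa array was the lowest for 235 (79.1%, beside 18.5% of all) and the AdOVA array the highest for 146 (49.2%, beside 22.6%). Here the AdOVA+TNFa array lay at -1.0 and the AdOVA array at 0.27. The genes were chosen on this pair, so these positions describe how the differences arose and test nothing.

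**Figure D3:**
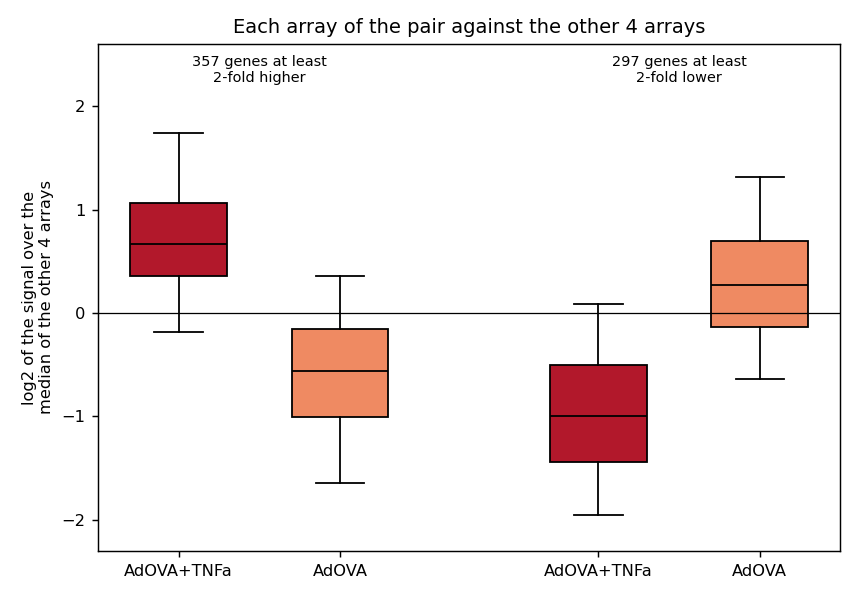
Log2 of the signal over the median of the other 4 arrays, for the AdOVA+TNFa and the AdOVA array, in the 357 genes at least 2-fold higher (left) and the 297 at least 2-fold lower (right). Boxes span the quartiles, lines inside are medians and whiskers reach the 5th and 95th percentiles. The medians are 0.67 and -0.56 for the higher genes and -1.0 and 0.27 for the lower ones.

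Cytokine genes were high on both AdOVA arrays, and most differed by less than 2-fold between them. Of 15 measured cytokine genes, 2 were at least 2-fold higher (13.3%, beside 4.00% of all genes) and none lower. The list's median was 0.10. Relative to the other 4 arrays the list lay at a median of 0.88 on the AdOVA+TNFa array and 0.83 on the AdOVA array. Il6 read 2749 in AdOVA+TNFa cells and 3114 in AdOVA cells, beside 326 in TNFa cells and 213 in untreated cells. Il1b read 12233 in AdOVA+TNFa cells and 13873 in AdOVA cells, beside 6636 in TNFa cells and 3788 in untreated cells. The AdOVA pair differed by -0.18 for each of these inflammatory cytokines. Without virus Il6 and Il1b differed by 0.61 and 0.81, and with AdIkBa-SR by 0.77 and 0.70. Il1a read 6622 in AdOVA+TNFa cells and 5839 in AdOVA cells (0.18), against 3007 in TNFa cells and 1275 in untreated cells (1.24), and it differed by -0.03 with AdIkBa-SR.

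The cytokine genes that passed 2-fold were Csf3, the granulocyte colony-stimulating factor, and Tgfb1, which restrains immune responses. Csf3 read 192 in AdOVA+TNFa cells and 69.6 in AdOVA cells (1.46), 91.3 in TNFa cells and under the floor in untreated cells. Tgfb1 read 1449 in AdOVA+TNFa cells and 618 in AdOVA cells (1.23), and was highest of all at 2458 in AdIkBa-SR+TNFa cells, against 874 in AdIkBa-SR cells. Il12b, the shared subunit of interleukins that drive T helper cells, read 562 in AdOVA+TNFa cells and 303 in AdOVA cells (0.89). It differed by -0.30 without virus and by -0.55 with AdIkBa-SR. The limma fit put the AdOVA response of Il12b 1.32 above that shared by the other pairs. With 1 residual degree of freedom that fit cannot decide whether they differ.

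Chemokine genes leaned the other way. Of 19 measured, 15 were below 0 and 3 above, with a median of -0.29. By 2-fold or more, 1 was higher and 1 lower (5.26% each, beside 4.00% and 3.32% of all genes). Ccl22, made by mature DC to attract T cells, read 1391 in AdOVA+TNFa cells and 615 in AdOVA cells (1.18), and 1651 in TNFa cells against 1542 in untreated cells. The AdOVA+TNFa signal of Ccl22 was thus close to that of the cells without virus. The AdOVA signal was the lowest of the 6, but near the 676 of AdIkBa-SR+TNFa cells and the 631 of AdIkBa-SR cells. Ccl7, which attracts monocytes, read 694 in AdOVA+TNFa cells and 1550.5 in AdOVA cells (-1.16). Its relative Ccl2 read 5536 in AdOVA+TNFa cells and 9689 in AdOVA cells (-0.81). Cxcl10, a chemokine also induced by interferon, stood at 7073 in AdOVA+TNFa cells and 7909 in AdOVA cells, beside 330.3 in TNFa cells and 314 in untreated cells. It differed far more between the virus states than between the arrays of any pair.

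**Figure D4:**
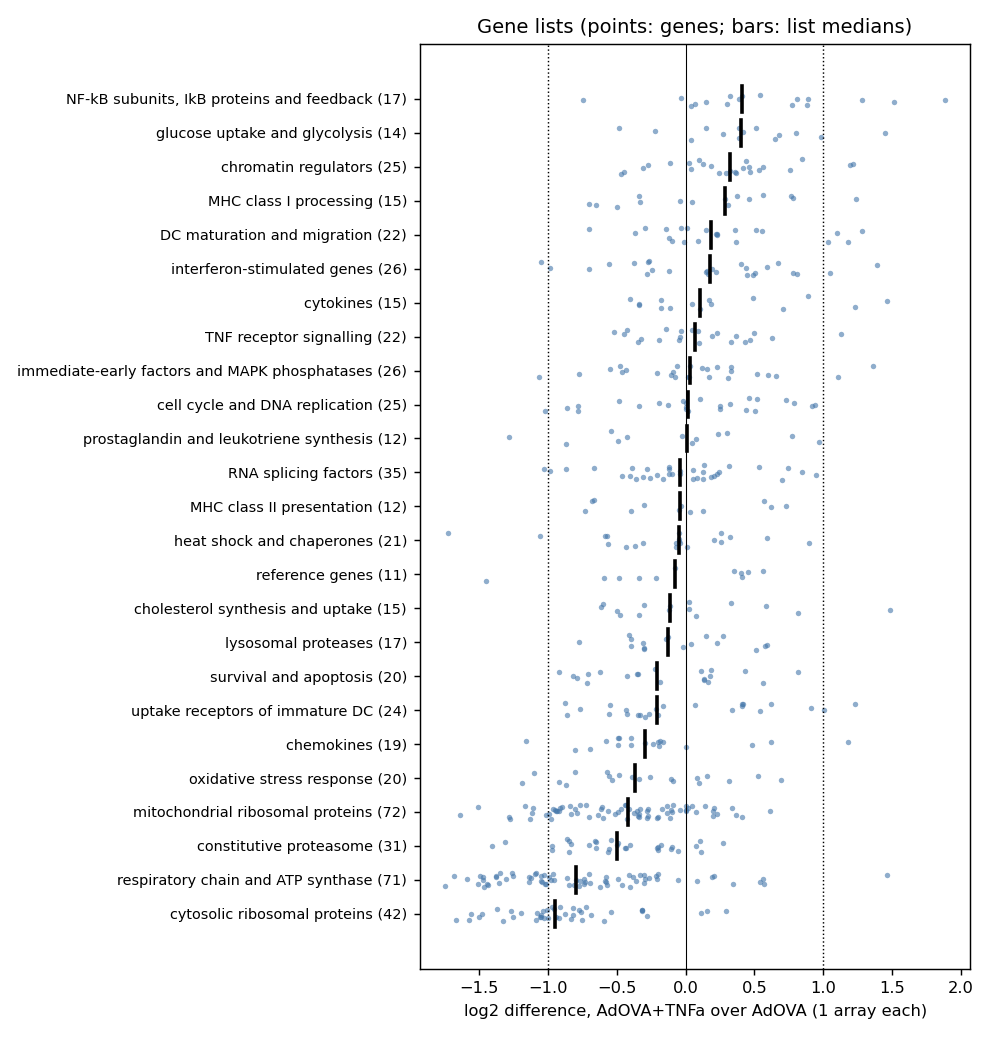
Log2 difference of AdOVA+TNFa over AdOVA cells for the measured genes of 25 lists (points, with the number of genes in brackets) and the list medians (bars), ordered by median, with dotted lines at 2-fold. The medians run from 0.41 for the NF-kB list to -0.95 for the cytosolic ribosomal proteins, beside 0.01 over all 8933 genes.

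Of 22 measured genes of DC maturation and migration, 4 were at least 2-fold higher (18.2%, beside 4.00% of all genes) and none lower, with a median of 0.19. They were Ccl22, Relb, Icosl and Icam1. Icam1, the adhesion molecule that binds T cells, read 1669 in AdOVA+TNFa cells and 815 in AdOVA cells (1.03). It was also higher with TNFa in the other virus states, at 1009.7 in TNFa cells against 617 in untreated cells (0.71), and at 673 in AdIkBa-SR+TNFa cells against 352 in AdIkBa-SR cells (0.94). Icosl, a costimulatory ligand, read 356 in AdOVA+TNFa cells and 166 in AdOVA cells (1.10). Its other probe set was under the floor on the AdOVA+TNFa array and differed by -0.24, and the mean over its probe sets was 0.43. The costimulatory gene Cd86 read 711 in AdOVA+TNFa cells and 1155 in AdOVA cells (-0.70). Cd80 and Cd40 differed by 0.22 and 0.37, and Ccr7, the receptor that guides mature DC to lymph nodes, by 0.36. The classical maturation genes therefore did not share 1 direction.

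Antigen presentation genes showed no difference of 2-fold in class II. Of 12 measured class II genes none passed 2-fold either way, and the median was -0.04. H2-Aa, a chain of the class II molecule, read 704 in AdOVA+TNFa cells and 1169 in AdOVA cells (-0.73). Cd74, the invariant chain that guards its groove, read 2331 in AdOVA+TNFa cells and 1515 in AdOVA cells (0.62). Of 15 measured class I genes 1 was at least 2-fold higher (6.67%, beside 4.00% of all genes), with a median of 0.29. It was Pdia3, a member of the peptide-loading complex, at 1745 in AdOVA+TNFa cells and 741 in AdOVA cells (1.24). Others of that complex were higher by less on their brightest probe sets, with 0.78 for Tapbp and 0.77 for Tap2. The other probe set of Tapbp differed by 1.05 and so passed 2-fold. The immunoproteasome genes Psmb10, Psmb8 and Psmb9 differed by -0.70, -0.65 and -0.50. Of 24 uptake receptors 2 were at least 2-fold higher (8.33%, beside 4.00% of all genes), and the list's median was -0.21. They were Axl (1.23) and Scarb1 (1.00), which both recognize dying cells. The other probe sets of Scarb1 differed by 0.03 and 0.36.

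Interferon-stimulated genes were high on both AdOVA arrays. Relative to the other 4 arrays the list of 26 lay at a median of 1.40 on the AdOVA+TNFa array and 1.12 on the AdOVA array, and the difference between both had a median of 0.18. By 2-fold or more, 2 of the 26 were higher (7.69%, beside 4.00% of all genes) and 1 lower (3.85%, beside 3.32%). Adar, the RNA-editing enzyme, read 1198 in AdOVA+TNFa cells and 457 in AdOVA cells (1.39). Stat2, of the interferon signalling complex, read 1421 in AdOVA+TNFa cells and 687 in AdOVA cells (1.05), and its other probe set differed by 0.30. Bst2, which tethers budding viruses, was the list's member at least 2-fold lower, at 2447 in AdOVA+TNFa cells and 5081 in AdOVA cells (-1.05). The abundant effector Rsad2 read 15999 in AdOVA+TNFa cells and 19264 in AdOVA cells (-0.27), beside 2834 in TNFa cells and 2889 in untreated cells. The shift of the list on both AdOVA arrays against the other 4 was thus larger than the difference between them.

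Immediate-early factors were spread around 0, with a median of 0.03. Of 26, 2 were at least 2-fold higher (7.69%, beside 4.00% of all genes) and 1 lower (3.85%, beside 3.32%). The AP-1 subunits Fosl2 and Jun differed by 1.36 and 1.11. Jun read 1013 in AdOVA+TNFa cells and 469 in AdOVA cells, and 278 in TNFa cells against 294 in untreated cells, and its other probe set differed by 0.24. The factor gene Egr3 was the lower one, at 60.4 in AdOVA+TNFa cells and 126 in AdOVA cells. None of 20 survival and apoptosis genes passed 2-fold, with a median of -0.20. Sod2, a mitochondrial antioxidant enzyme and a known NF-kB target, read 6549.7 in AdOVA+TNFa cells and 12384 in AdOVA cells (-0.92) on its brightest probe set. Its 3 probe sets ran from -0.92 to 0.59, with a mean of -0.22, so they do not share 1 direction. Ptgs2, the inducible cyclooxygenase, read 4209.7 in AdOVA+TNFa cells and 2148 in AdOVA cells (0.97), 803 in TNFa cells and 239 in untreated cells (1.75), and 799.7 in AdIkBa-SR+TNFa cells against 379.9 in AdIkBa-SR cells (1.07). Ptgs2 was thus higher with TNFa in each of the 3 pairs. Of that list's 12 genes 1 was at least 2-fold lower (8.33%, beside 3.32% of all genes), the prostaglandin D synthase gene Ptgds (-1.28), and none was higher.

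Genes of glucose uptake and glycolysis were mostly higher. Of 14 measured, 12 were above 0, 1 was at least 2-fold higher (7.14%, beside 4.00% of all genes), and the median was 0.40. The AdOVA+TNFa array was the highest of the 6 for 12 of the 14, as it was for 27.8% of all measured genes. Pfkl, the liver-type phosphofructokinase, read 1542 in AdOVA+TNFa cells and 564 in AdOVA cells (1.45), and 1215 in AdIkBa-SR+TNFa cells against 497 in AdIkBa-SR cells (1.29). Aldoa, the aldolase, read 10909.8 in AdOVA+TNFa cells and 5510.2 in AdOVA cells (0.99). It read 4917 in TNFa cells against 5409 in untreated cells, and 10498 in AdIkBa-SR+TNFa cells against 4984 in AdIkBa-SR cells (1.07). Slc2a1, which encodes the glucose transporter GLUT1, read 6033 in AdOVA+TNFa cells and 4600.1 in AdOVA cells (0.39), beside 2361 in TNFa cells and 2541 in untreated cells. In the pair without virus the list's median was -0.09, and with AdIkBa-SR it was 0.22. Of 15 cholesterol genes 1 was at least 2-fold higher (6.67%, beside 4.00% of all genes), with a list median of -0.11. It was the factor gene Srebf2 (1.48, with 0.37 on its other probe set).

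Among the 25 lists the median farthest from 0 was that of the cytosolic ribosomal proteins, the protein part of the ribosome, and it was negative. Of the 79 genes listed, only 43 had a probe set with 1 gene symbol, and 42 were measured. Of 42 measured genes 39 were below 0, 18 were at least 2-fold lower (42.9%, beside 3.32% of all genes), none was at least 2-fold higher, and the median was -0.95. Their summed signal was 63448 on the AdOVA+TNFa array and 125156 on the AdOVA array, and between 110376 and 156298 on the other 4. The AdOVA+TNFa array was the lowest of the 6 for 38 of the 42, as it was for 18.5% of all measured genes. Rpl35 had the largest difference, at 816 in AdOVA+TNFa cells and 2591 in AdOVA cells (-1.67), although its 6 probe sets ran from -1.67 to -0.07. Other probe sets of genes in the 2-fold count reached 0.24 for Rps24 and 0.07 for Rpl13a. Both measured probe sets of Rps14 and of Rps7 were at least 2-fold lower. Rps26 read 1344 in AdOVA+TNFa cells and 4008 in AdOVA cells (-1.58). Rps18 read 1211 in AdOVA+TNFa cells and 2566 in AdOVA cells (-1.08), and 2102 in TNFa cells against 4393 in untreated cells (-1.06). Probe sets of ribosomal protein genes can share sequence with pseudogenes. This is the same array on which the 18S control probe sets were highest, and the part of that in the ribosomal protein values was not tested.

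The respiratory chain and ATP synthase followed. Of 71 measured genes 63 were below 0, 28 were at least 2-fold lower (39.4%, beside 3.32% of all genes) and 1, Atp5b, was at least 2-fold higher (1.41%, beside 4.00%), with a median of -0.80. Their summed signal was 40161 on the AdOVA+TNFa array and 70532 on the AdOVA array, and between 66168 and 94046 on the other 4. Cox7a2, a subunit of cytochrome c oxidase, read 1237 in AdOVA+TNFa cells and 3714 in AdOVA cells (-1.59). Ndufa3, of complex I, read 432 in AdOVA+TNFa cells and 1388 in AdOVA cells (-1.68). Uqcrb, of complex III, read 1668 in AdOVA+TNFa cells and 4698 in AdOVA cells (-1.49). Lower genes thus came from more than 1 complex of the chain. The mitochondrial ribosomal proteins had 9 of 72 at least 2-fold lower (12.5%) and a median of -0.42. The constitutive proteasome had 2 of 31 at least 2-fold lower (6.45%), Psma2 (-1.41) and Psma7 (-1.31), and a median of -0.50. Both shares stand beside the same 3.32% of all genes.

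The displacement was partly shared with the pair without virus. The median of the ribosomal proteins was -0.50 in TNFa over untreated cells and 0.02 in AdIkBa-SR+TNFa over AdIkBa-SR cells. For the respiratory chain the medians were -0.56 without virus and -0.03 with AdIkBa-SR. In both other pairs the arrays share a hybridization time, but the wash and stain settings differ within the AdIkBa-SR pair. The part of hybridization time or settings in these medians was not tested. The NF-kB list had medians of 0.22 without virus and 0.54 with AdIkBa-SR.

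**Figure D5:**
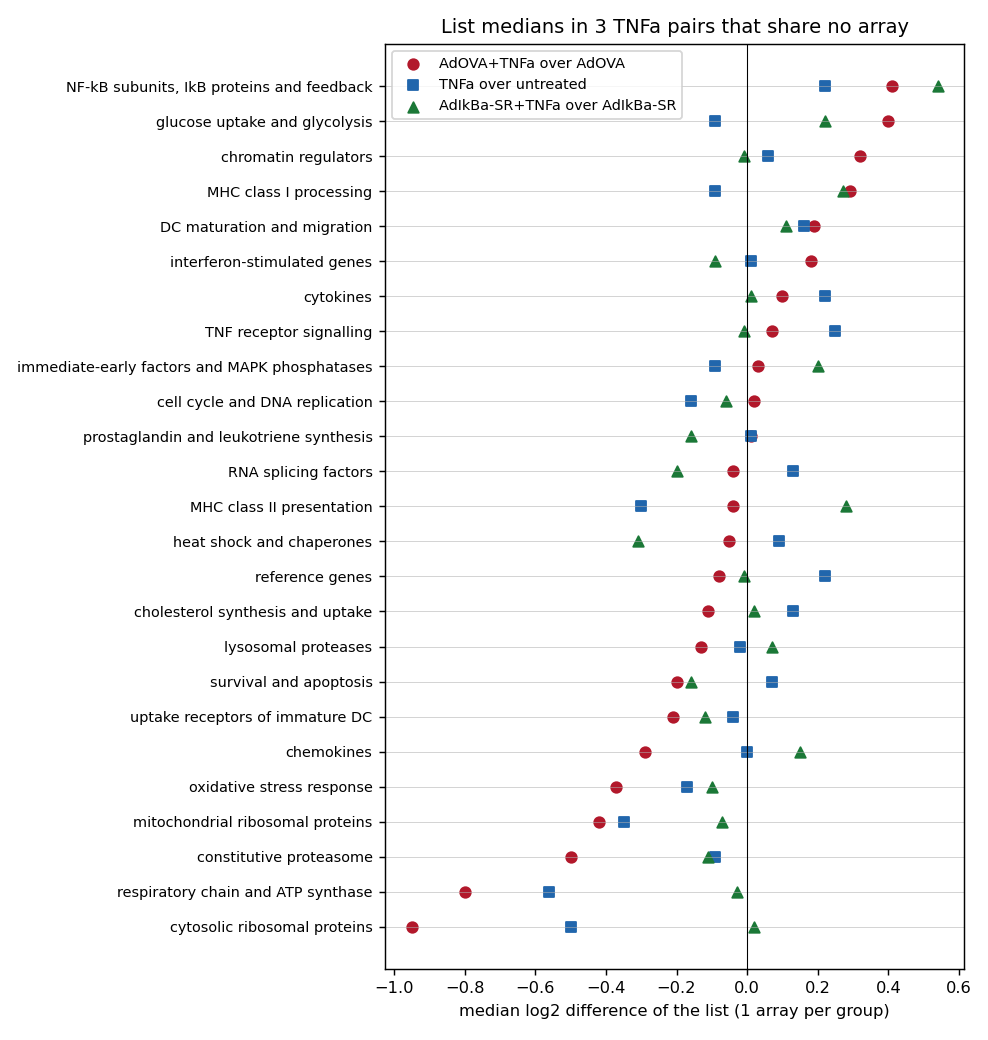
Median log2 difference of 25 gene lists with TNFa in AdOVA cells (circles), in cells without virus (squares) and in AdIkBa-SR cells (triangles), 1 array per group, with no array shared between pairs. The NF-kB list lies above 0 in all 3 pairs (0.41, 0.22 and 0.54), and the ribosomal proteins lie below 0 in AdOVA cells (-0.95) and without virus (-0.50) but not in AdIkBa-SR cells (0.02).

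Among bright genes at least 2-fold lower (125 with signals of at least 200 on both arrays), the 15 largest differences, from -1.85 to -1.49, included ribosomal proteins (Rpl35, Rps26, Rpl37a and Rpl6) and respiratory subunits or their assembly factors (Ndufa3, Cox7a2, Cox17 and Uqcrb). AY036118 had the largest, at 274 in AdOVA+TNFa cells and 991 in AdOVA cells. Nop10, of the complex that modifies ribosomal RNA, read 300.3 in AdOVA+TNFa cells and 947 in AdOVA cells (-1.66). Hax1 differed by -1.73 on its brightest probe set and by 0.04 on its other one. The remaining members were Srp19, Hint1, Serf2 and S100a9. Gng2, a G protein subunit, was under the floor in AdOVA+TNFa cells and at 247 in AdOVA cells, at least 4.62-fold lower. Zdhhc6 was at least 4.18-fold lower on its brightest probe set, while its other probe set was higher by 1.05.

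Hspe1, the mitochondrial co-chaperone, was the single gene 2-fold or more lower in all 3 pairs on its brightest probe set (the other one differed by -0.80 in the AdOVA pair), and no gene was that much higher in all 3. It read 111 in AdOVA+TNFa cells and 368 in AdOVA cells, 253 in TNFa cells and 531 in untreated cells, and 301 in AdIkBa-SR+TNFa cells against 687 in AdIkBa-SR cells. Its list of 21 heat shock genes and chaperones had 2 at least 2-fold lower (9.52%, beside 3.32% of all genes), with Hspb1 the other. The median of that list was -0.05. In the oxidative stress list 2 of 20 were at least 2-fold lower (10.0%, beside 3.32% of all genes), with a median of -0.37. They were Txn1, thioredoxin, at 3548 in AdOVA+TNFa cells and 8079 in AdOVA cells (-1.19), and the metallothionein gene Mt2 (-1.11). The other probe set of Txn1 was higher by 0.47. RNA splicing factors, 35 in number, had a median of -0.04 and 1 at least 2-fold lower (2.86%, beside 3.32% of all genes). It was Tra2b (-1.03), whose other probe set was higher by 0.26. Chromatin regulators had 20 of 25 above 0 and a median of 0.32. The remodelling subunits Chd4 (1.22) and Arid1a (1.20) were at least 2-fold higher (8.0%, beside 4.00% of all genes). The mean over the probe sets was however 0.82 for Chd4 and 0.20 for Arid1a, whose other probe set differed by -0.79. Of 25 cell cycle genes 1, Ccna2, was at least 2-fold lower on its brightest probe set (4.0%, beside 3.32% of all genes). That probe set was under the floor on the AdOVA+TNFa array, while the other probe set of Ccna2 was higher by 0.47. The median of that list was 0.02. Of 17 lysosomal genes none passed 2-fold, with a median of -0.13. Of 11 reference genes 1 was at least 2-fold lower (9.09%, beside 3.32% of all genes), and the median was -0.08. It was Hprt, at 274 in AdOVA+TNFa cells and 748 in AdOVA cells.

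The 2-fold genes of the AdOVA pair were set beside those of the other pairs. Of the 357 genes higher in AdOVA cells, 7 (1.96%) were also at least 2-fold higher without virus, beside 0.526% of all genes. These are 14.9% of the 47 there, namely Bace1, Mapk7, Pcdh7, Rexo1, Slc20a2, Speer4f1 and Stk10. With AdIkBa-SR 46 were shared (12.9% of 357, beside 1.67% of all genes, and 30.9% of 149), among them Nos2, Itga5, Anpep, Arpc4, Nfkb2, Relb, Tnfaip3, Nlrp3, Csf3, Tgfb1 and Pfkl. Of the 297 lower genes 16 were also lower without virus (5.39%, beside 1.06% of all genes, and 16.8% of 95), and 6 with AdIkBa-SR (2.02%, beside 0.828%, and 8.11% of 74). Opposite directions occurred too. Of the 357 higher genes, 5 were at least 2-fold lower without virus, beside 95 of all 8933 genes, and none with AdIkBa-SR. Of the 297 lower genes, 3 were at least 2-fold higher without virus and 3 with AdIkBa-SR, beside 47 and 149 of all 8933. The median of the 357 higher genes was 0.06 without virus and 0.45 with AdIkBa-SR, and that of the 297 lower genes was -0.36 without virus and -0.14 with AdIkBa-SR. Across the 8933 genes the log2 differences of the AdOVA pair had a Pearson correlation of 0.20 with those without virus and 0.32 with those of the AdIkBa-SR pair. Genes are not independent replicates, and these are descriptions.

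The DC label was set against its markers. Of 16 markers 15 were measured, and Flt3 was not. Their summed signal was 14604 on the AdOVA+TNFa array and 15597 on the AdOVA array, and between 16017 and 21373 on the other 4. None of the 15 was at least 2-fold apart between the AdOVA+TNFa and AdOVA arrays. Itgax, which encodes CD11c, read 329 in AdOVA+TNFa cells and 247 in AdOVA cells, and between 664 and 847 on the other 4. Ciita, the class II transactivator, was near the floor at 65.2 in AdOVA+TNFa cells and 67.5 in AdOVA cells, and Cd209a was under it in AdOVA+TNFa cells. Macrophage markers, which DC grown with GM-CSF share in part, summed to 35701 on the AdOVA+TNFa array and 44170 on the AdOVA array, with 9 of 12 measured and none 2-fold apart.

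Granulocyte markers were present and did not share 1 direction. All 12 were measured, 4 were above 0 and 8 below, and the median was -0.17. Of the 12, 4 were at least 2-fold lower (33.3%, beside 3.32% of all genes) and none higher. The median signal of the list was 465.3 on the AdOVA+TNFa array and 313.8 on the AdOVA array, while the sum was 18866 on the AdOVA+TNFa array and 26327 on the AdOVA array, and between 19184 and 34993 on the other 4. S100a9, a calcium-binding protein abundant in neutrophils, read 2618 in AdOVA+TNFa cells and 7659.7 in AdOVA cells (-1.55). The others were Camp, Ctsg and Elane, dim genes at 147, 135 and 124 in AdOVA cells and all under the floor in AdOVA+TNFa cells. Mmp9, a gelatinase, had the highest difference of the list (0.76). Pf4, a platelet chemokine that macrophages also make, read 2629 in AdOVA+TNFa cells and 5349 in AdOVA cells (-1.02). Fewer cells of a type and less RNA per cell cannot be told apart in such bulk samples, and the part of these markers in the lower genes was not tested. Among T, B, NK, mast cell, erythroid and fibroblast markers none was 2-fold apart, and Cd3d, Cd3e, Cd3g, Cd4, Cd79b, Pax5, Ncr1 and Col1a1 were not measured.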

How the data were processed

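Total RNA was measured on 6 Affymetrix MOE430A arrays, 1 per group, with groups taken from the sample titles. The authors deposited 1 linear intensity per probe set, made with MAS5 (version not stated) per the submitters' processing notes. Hybridization and wash settings came from the array headers per the deposited experiment files. Of 22626 non-control probe sets, the platform annotation gives 1 symbol to 20380, several to 691 and none to 1555, and genes were named from the 20380.

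Signals under the floor (the 40th percentile) were set to it before log2 values were taken, which compresses the differences of dim genes. "At least" before such a fold marks a lower bound. Precision is limited by the number of arrays. The main comparison has no test. limma 3.58.1 in R 4.3.3 (lmFit, eBayes with a trend) was fitted to all 6 arrays with 5 coefficients and 1 residual degree of freedom, and was tested on simulated data. Other steps used Python 3.11.15 with pandas 2.3.3.

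Named genes were the 15 per direction with the largest differences and both signals of at least 200, up to 5 per direction with 1 signal under the floor and the other at least 200, list members at least 2-fold apart or with the largest differences, and Tnf, Tnfrsf1a, Tnfrsf1b, Nfkbia and Rps18. Other list members are named after their values were seen. Members, the 25 gene lists and the 10 marker lists were chosen with earlier results of these data known. Alternatives covered the floor, the filter, the scaling, the fold threshold, the fit and the probe set of a gene.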

Additional observations from a re-analysis of the deposited data

Results flagged for a closer look

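The 18S ribosomal RNA control probe sets, which enter no comparison, were higher on the AdOVA+TNFa array than on any other array. They read 2601.1 (5'), 302.6 (middle) and 1061.3 (3') on the AdOVA+TNFa array, against 233.6, 80.3 and 289.0 on the AdOVA array.

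Some genes were at least 2-fold apart in the AdOVA pair and in the pair without virus, in opposite directions. Of the 357 genes higher in AdOVA cells, 5 were at least 2-fold lower without virus, beside 95 of all 8933 genes. Of the 297 lower genes, 3 were at least 2-fold higher without virus, beside 47 of all 8933. Among these, 4 are given here. Abhd12 differed by 1.58 with TNFa in AdOVA cells and by -1.12 without virus. Sp110 differed by 1.51 in AdOVA cells and by -1.09 without virus, and Myo18a by 1.13 in AdOVA cells and by -1.34 without virus. Gfra3 differed by -1.03 in AdOVA cells and by 1.87 without virus. With AdIkBa-SR, 3 of the 297 lower genes were at least 2-fold higher, beside 149 of all 8933 genes, and none of the 357 higher genes was at least 2-fold lower. Among those 3, Rnasek differed by -1.34 in AdOVA cells and by 1.43 in AdIkBa-SR cells, and Rpl39 by -1.20 in AdOVA cells and by 1.08 in AdIkBa-SR cells. The differences between single pairs were not tested.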

How the results depend on the processing

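The counts of probe sets moved with the floor and the threshold. With a floor of 25, 1299 were at least 2-fold higher and 937 lower, and with a floor of 100, 355 were higher and 355 lower. At a 3-fold threshold 124 were higher and 43 lower. Quantile normalization gave 635 higher and 586 lower, and 508 and 634 followed from equal medians, as stated above. Without the filter the counts were 717 and 503, and with both arrays above the floor 506 and 428. Gene counts, 357 higher and 297 lower above, were 323 and 360 with quantile normalization, 299 and 223 with the mean over a gene's probe sets, 198 and 201 with a floor of 100, and 366 and 263 without probe sets ending in _s_at or _x_at. Of 177 named genes, 44 moved by more than 0.24 on the log2 scale with that mean, 36 with a floor of 100 and 21 with quantile normalization. limma made 4 higher calls (smallest adjusted p of 0.049) when the AdOVA pair and the pair without virus shared 1 TNFa coefficient, and 0 in the other alternatives. Of the 35 list medians, 34 moved by less than the typical difference of the pair without virus (0.24) under quantile normalization, the exception being the macrophage markers at 0.05, and 34 with a floor of 100, the exception being the platelet markers at -0.27. Without probe sets ending in _s_at or _x_at, an alternative chosen after seeing the data, Hax1 reversed to 0.04 and Zdhhc6 to 1.05, as it then rests on the gene's other probe set. No paired analysis was possible because each group has 1 array, and no array could be left out for the same reason. MAS5 signals near the floor limit what can be said of dim genes.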
